A study of Homo sapiens with 12 samples.

Results

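Cells that had spent 72 h with Ota were compared with control cells of 24 h. The comparison uses the 3 arrays titled Ota, hd, t72h that are not control samples and the 3 arrays titled t24h, control sample, 6 of the 12 arrays of the series. The series measured expression in HK-2 cells, human renal tubule epithelium that has been immortalized, to look for signatures of toxicity, and set a high dose of Ota against controls at each time. Ota cells had been given the high dose for 72 h, whereas control cells had been given vehicle for 24 h. The full name and the amount of the compound are not stated in the labels. All groups were grown in DMEM and Ham's F12 with EGF, hydrocortisone, insulin, transferrin and selenite, seeded a day before treatment in 6-well plates and treated close to confluence. Ota cells of 24 h and control cells of 72 h, 3 arrays each, are given beside them where the time in culture matters. Arrays of a group are labelled as biological repeats, but no label says that they came from different cultures; p-values therefore cover the spread among these samples only, and that spread may be technical. Treatment and time in culture both differ in this comparison, and from its 6 arrays alone they cannot be told apart.

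HK-2 cells keep growing in EGF and keep only part of the tubule's transport functions. Genes for the core histones are transcribed during DNA synthesis, and their messages normally end in a stem loop in place of a poly(A) tail. Cyclin and kinesin genes peak before mitosis, replication genes before DNA synthesis, and CDKN1A, which encodes the kinase inhibitor p21, brakes both. Cells with unfolded protein in the endoplasmic reticulum raise chaperone genes, and those short of amino acids raise targets of the transcription factor ATF4. Metallothioneins are small proteins that bind zinc and copper and follow the supply of metal and glucocorticoid.

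Values are log2 expression values from Affymetrix arrays, on which a difference of 1 is a doubling of signal. Differences are Ota 72 h minus control 24 h with their standard error, from a limma fit, and a gene is said to have risen or fallen where its adjusted p was under 0.05. Values under 4, the floor of the filter, lie close to background, so the size of a change to or from them is uncertain. Of the 10729 genes tested, 6226 changed (58.0%), of which 2487 rose (23.2% of all) and 3739 fell (34.8%), and log2 differences ran from -6.91 to 6.87. Those with an absolute difference of at least 1 made up 34.9%, 1222 up and 2519 down. For 68.9% of genes all 3 Ota arrays lay on one side of all 3 control arrays. For 4280 genes (39.9%) the 95% interval of the difference lay within -1 to 1, so that a change larger than a doubling or halving was outside it. The median SE of a difference was 0.21, and the number of arrays limits this precision.

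**Figure D1:**
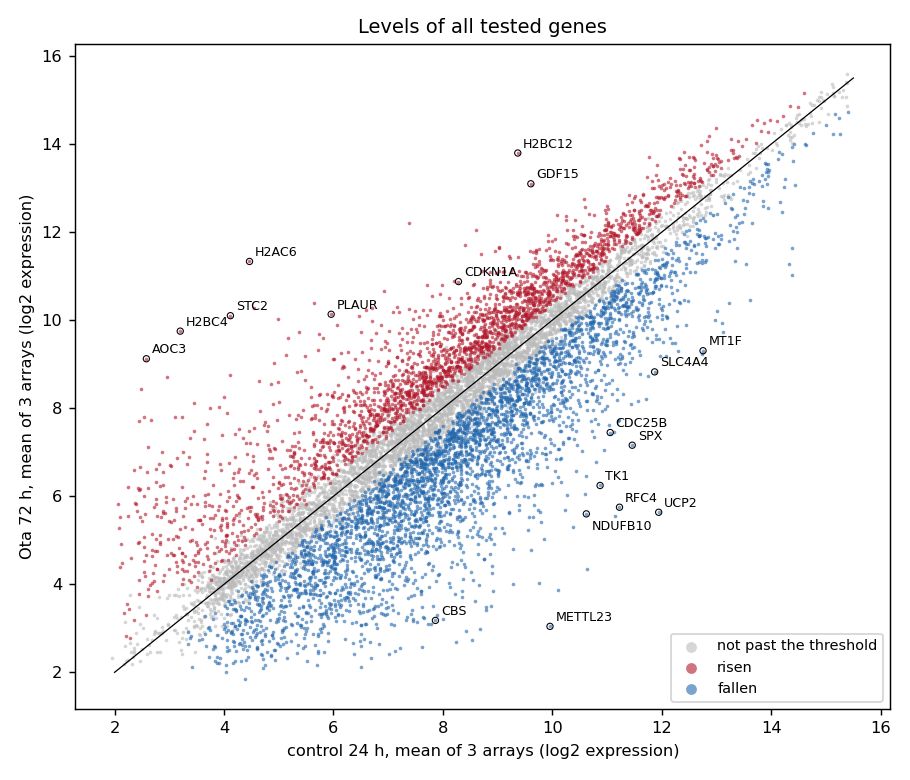
Mean log2 expression of each tested gene in Ota cells of 72 h (vertical axis) against control cells of 24 h (horizontal axis), with named genes marked and the diagonal for equal levels. H2AC6 and H2BC4 lie farthest above the diagonal and METTL23 and UCP2 farthest below it.

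Several array-wide measures differed between the groups. Poly-A spike-ins, bacterial transcripts added before labelling, averaged 8.91 ± 0.37 on Ota arrays and 7.98 ± 0.19 on control arrays (SD, n = 3 each). Probe sets for 18S ribosomal RNA averaged 8.74 ± 0.23 and 7.09 ± 0.27, and the median of the tested genes 7.68 ± 0.05 and 7.97 ± 0.05, in Ota and control cells. For ACTB, the signal of the 3' probe set exceeded that of the 5' probe set, a measure of how intact the RNA is, by 1.97 ± 0.33 on Ota arrays and by 1.18 ± 0.19 on control arrays. The same measure for GAPDH was -0.02 ± 0.07 on Ota arrays and -0.06 ± 0.01 on control arrays and did not separate the groups (exact permutation test, p = 0.6). The groups were apart in each of the other measures given here (p = 0.1 by a two-sided exact permutation test, which cannot go lower with 3 and 3 arrays). The part of these measures in the results, and that of the hybridization controls in the spike-in shift, was not tested. The median log2 difference of all tested genes was -0.13 as deposited. It moved by 0.06 with quantile normalization, by 0.28 when each array was centred on its median and by -0.92 when arrays were scaled to the spike-ins, which bears on every direction below. The share of rises among all calls was 39.9% as deposited, 56.3% with centring and 6.15% with spike-in scaling. For this reason the median of a gene list is given as its distance from the median of all genes (relative median), and counts with spike-in scaling stand beside those as deposited. Counts against the other groups are as deposited only. Poly-A spike-ins averaged 9.83 on Ota arrays of 24 h and 8.02 on control arrays of 72 h, and the median of the tested genes 7.40 and 7.96. Against Ota cells of 24 h, 37.0% of all tested genes rose in Ota cells of 72 h and 23.3% fell. Against control cells of 72 h, 24.8% rose and 35.2% fell.

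Epithelial markers passed the filter in 8 of 8 cases, but their summed level was 72.3 to 73.7 on Ota arrays and 80.6 to 83.7 on control arrays, with 5 fallen and EPCAM, an epithelial adhesion molecule, risen (0.51 ± 0.18). The defining proximal tubule markers LRP2, CUBN, AQP1 and ANPEP were near background in both groups. Of the 9 tubule markers that had a probe set with 1 gene symbol, only PAX8, a renal transcription factor, passed the filter. Summed levels were 29.0 to 30.7 with Ota and 31.3 to 31.5 in controls. Leukocyte markers summed to 18.7 to 19.3 with Ota and 14.5 to 14.7 in controls. This came through 1 of the 6 that had a probe set with 1 gene symbol, FCER1G, an Fc receptor chain (4.20 ± 0.17). PTPRC, CD3E and CD14 stayed near background on all arrays. Of fibroblast markers 4 of 9 passed, 2 of which fell, and summed levels were 45.3 to 46.7 with Ota and 48.0 to 48.8 in controls. In such bulk RNA, fewer cells of a kind and less RNA per cell cannot be told apart.

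Replication-dependent histone genes gave the highest rises of the comparison. H2AC6, which encodes a core histone H2A, had 11.31, 11.30 and 11.39 in Ota cells of 72 h, against 4.52, 3.62 and 5.26 in control cells of 24 h. H2BC4, an H2B gene, had 9.86, 9.87 and 9.52 with Ota, against 2.99, 3.29 and 3.31 in controls. The groups lay far apart for both. The difference was 6.87 ± 0.32 (limma adjusted p = 2.66e-08) for H2AC6 and 6.55 ± 0.27 (limma adjusted p = 1.08e-08) for H2BC4. H2BC4 lay under 4 in both control groups and passed the filter only through Ota arrays, so its call is not a separate result. These 2 genes share a divergent promoter: their starts lie 245 bases apart, and a single octamer, the letters ATTTGCAT known from H2B promoters, lies between them. Its 250 bases upstream of H2AC6, at chr6:26123922-26124171 on the plus strand (RefSeq, GRCh38.p14), are printed because this stretch serves both leading genes, with the octamer, here as its reverse complement, in capitals.
H2AC6 promoter: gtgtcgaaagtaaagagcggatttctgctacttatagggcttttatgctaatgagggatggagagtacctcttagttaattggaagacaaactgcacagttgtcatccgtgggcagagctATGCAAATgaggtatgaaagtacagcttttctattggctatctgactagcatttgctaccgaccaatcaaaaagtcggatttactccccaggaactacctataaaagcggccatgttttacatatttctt
On either strand, the octamer was found in 11 of the 18 measured histone promoters, 6 of 7 for H2B, and in 1.66% of all 27305 RefSeq promoters of that length. Divergent neighbours share a match, and a match describes the letters alone.

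H2BC12, already bright in controls, had 13.75, 13.83 and 13.81 with Ota, against 9.08, 9.52 and 9.50 in controls (4.43 ± 0.17). H2BC5 (3.95 ± 0.14), H2BC6 (4.42 ± 0.17), H2BC9 (3.77 ± 0.20) and the linker histone gene H1-2 (3.43 ± 0.18), which packs DNA between nucleosomes, rose too, without overlap between the groups. H4C11 did not pass the test (0.77, limma adjusted p = 0.0576). Of 62 listed histone genes 38 had a probe set with 1 gene symbol and 18 passed the filter. Probe sets with several symbols were not used. Among the 18 were 10 that exceeded 4 on no control array, H2BC4 among them, and these could enter only by being higher with Ota. Of the 6 that exceeded 4 on all 3 control arrays of 24 h, 5 rose, against 22.2% of all 10031 genes that did so. With no filter, 16 of the 38 rose and 0 fell, with a median log2 difference of 0.59. With spike-in scaling, 15 of the 18 rose and 0 fell, but the 18 include the 10 that could enter only by being higher with Ota. That count was not made for the 6 alone. The probe sets of 8 of the 18 may be shared by near-identical histone genes, so single members are less certain than the family.

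The 6 histone genes that exceeded 4 on all control arrays of 24 h were also set against the other groups, in comparisons that share arrays with the first one. All 6 were higher in Ota cells of 72 h than in control cells of 72 h, where 24.8% of all tested genes rose and 35.2% fell. Between the controls themselves, 72 h against 24 h, 1 of the 6 rose and 2 fell, where 12.2% of all tested genes rose and 13.3% fell. Against Ota cells of 24 h, where 37.0% of all tested genes rose and 23.3% fell, 5 of the 6 were higher at 72 h and 1 lower. H2AC6, which exceeded 4 on only some of the early control arrays, had a mean of 7.35 in control cells of 72 h and was higher there than in control cells of 24 h (2.89, limma adjusted p = 7.1e-05). H2BC21 had 5.96, 6.21 and 6.44 in Ota cells of 72 h, against means of 2.29 in Ota cells of 24 h, 2.28 in control cells of 72 h and 2.25 in control cells of 24 h. It was thus above background in 1 of the 4 groups. Among replacement histone variants, which are made outside DNA synthesis, 2 of 9 measured rose and 5 fell, relative median -0.87. With spike-in scaling 0 rose and 7 fell. Without probe sets that may be shared, 4 members were left, 1 risen and 1 fallen, with a median log2 difference of -0.07. H1-10 (-2.32 ± 0.21) and the centromeric CENPA (-1.17) fell, and MACROH2A1 (0.94) and H3-3A (1.12) rose as deposited.

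**Figure D2:**
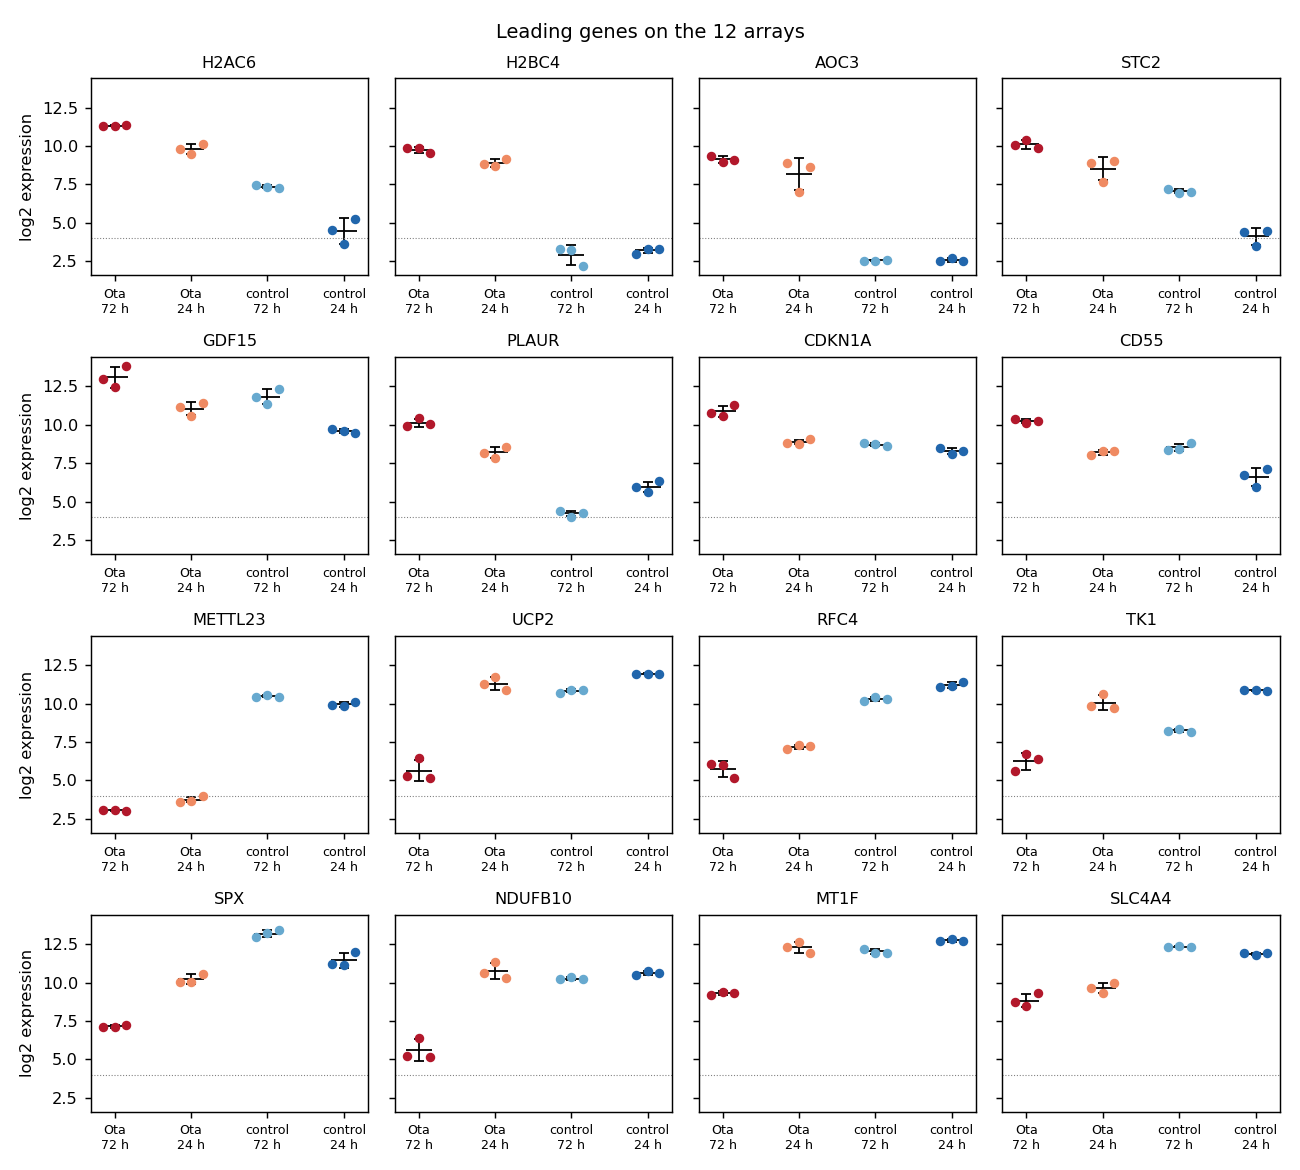
Log2 expression on each array for 16 genes in the order Ota 72 h, Ota 24 h, control 72 h and control 24 h, with points for arrays, bars for the mean ± SD (n = 3) and a dotted line at 4, the filter's floor. H2BC4 averages 9.75 and 8.88 in the Ota groups of 72 h and 24 h and lies under the dotted line in both control groups, whereas UCP2, NDUFB10 and MT1F are low in Ota cells of 72 h alone.

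Beside the histone genes, the largest rises were of genes near background in controls. A gene under 4 on all control arrays of 24 h could pass the filter only through higher arrays of other groups. The place of such genes among the rises is therefore partly set by the filter. AOC3, which encodes an amine oxidase of the cell surface, had 9.36, 8.93 and 9.09 with Ota, against 2.51, 2.71 and 2.53 in controls (6.54 ± 0.37). STC2, a secreted glycoprotein of calcium and phosphate balance, had 10.05, 10.41 and 9.84, against 4.41, 3.48 and 4.46 in controls (5.98 ± 0.35). SPMIP1, a sperm microtubule protein, AVIL, an actin-binding protein, ZNF513, a zinc finger protein, the meiotic gene MSH4 and LSMEM1, a membrane protein, rose by 5.07 to 5.97, with control means of 2.44 to 2.95. The remaining 3 of the 12 were MGC16275 (5.72), the histone gene H2BC12L (4.83) and DCTN5, a dynactin subunit (5.05), for which 2 of 4 probe sets stood at -0.16 and -0.10. Where both group means were at least 6, the leading rises beside the H2B genes were CTC-338M12.4 (3.82 ± 0.25), for which no role is given, DDX5, an RNA helicase (3.74 ± 0.17), PTX3, a pentraxin of innate immunity (3.64 ± 0.41), CD55, which shields cells from complement (3.63 ± 0.26), and ELP2, an Elongator subunit (3.58 ± 0.17). The other probe sets of ELP2 stood at 0.04, 0.19, 2.18 and 4.38. CD55 had 10.35, 10.10 and 10.24 with Ota, against 6.71, 5.94 and 7.13 in controls.

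The deepest fall was that of METTL23, which encodes an arginine methyltransferase, with 3.10, 3.04 and 2.99 in Ota cells of 72 h, against 9.91, 9.82 and 10.14 in control cells of 24 h (-6.91 ± 0.14, limma adjusted p = 9.24e-11). UCP2, a carrier of the mitochondrial inner membrane, had 5.29, 6.45 and 5.17 with Ota, against 11.96, 11.91 and 11.95 in controls (-6.31 ± 0.30). RNASEH2A, the catalytic subunit of the enzyme that removes RNA from DNA, had 4.09, 4.07 and 4.91, against 10.62, 10.71 and 10.59 in controls (-6.28 ± 0.37). Both remained clearly above background in Ota cells of 24 h, with means of 11.31 for UCP2 and 8.62 for RNASEH2A. The nuclear envelope gene SYNE2 (-6.22), the endosomal RUFY1 (-5.79), TMEM37 (-5.73, and -5.13 without replicate 2 of Ota cells), the mitochondrial carrier SLC25A11 (-5.68), BCKDK, a kinase of branched-chain amino acid breakdown (-5.55), the lysosome positioning gene BORCS8 (-5.48) and the receptor GPR160 (-5.38) fell as well. The other probe set of BORCS8 stood at -0.07. KDELR3, a retrieval receptor for escaped chaperones, scattered between 3.04 and 7.66 on Ota arrays, against a mean of 11.15 ± 0.13 on control arrays (SD, n = 3), and differed by -5.59 (SE 0.81), which became -4.33 without replicate 3 and -6.64 without replicate 2 of Ota cells. With both means at least 6, SPX, which encodes the peptide hormone spexin (-4.30), the ciliary gene CYS1 (-4.54), the homeobox gene IRX3 (-4.24), the mitochondrial ribosome gene MRPS16 (-4.14), the amidase NIT2 (-4.02), HLA-DMB, which loads peptides onto class II molecules (-3.89), and CIRBP, an RNA-binding protein induced by cold (-3.85), fell.

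Mitosis genes were lower in Ota cells of 72 h than in the early controls, although higher than in the late ones. Of 36 measured, 0 rose and 23 fell against control cells of 24 h, with a relative median of -0.56; 2 rose and 15 fell with centring, and 0 and 34 with spike-in scaling. CDC25B, a phosphatase that starts mitosis, had 7.19, 7.20 and 7.96 with Ota, against 10.96, 11.49 and 10.72 in controls (-3.61 ± 0.26). The kinesin KIF20A (-2.94 ± 0.18), the kinase AURKB (-2.85 ± 0.18) and the cyclin CCNB2 (-2.46 ± 0.21) followed. MKI67, the proliferation marker, had 9.07, 9.24 and 9.52 with Ota, against 10.95, 11.19 and 10.65 in controls (-1.66 ± 0.24). The spread of the list was wide, since BUB1 (-0.04), NDC80 (-0.05) and TTK (0.07), all of the spindle checkpoint or kinetochore, did not pass the test. Against control cells of 72 h, 25 of the 36 were higher and 4 lower. Control cells of 72 h had themselves 34 of 36 lower than those of 24 h and 0 higher, which is the test of the difference between the 2 comparisons. MKI67 averaged 8.52 in control cells of 72 h and 7.46 in Ota cells of 24 h.

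Promoters of 2 cyclin-stage genes are printed to show the cell cycle genes homology region, the letters TTTGAA, known from genes of late cell cycle. It was found on either strand within 250 bases in 14 of 30 mitosis promoters matched, and in 13.6% of all promoters. Capitals mark it in CCNB2, at chr15:59104896-59105145 on the plus strand, and in CDC20, an activator of the anaphase ligase, at chr1:43358731-43358980 on the plus strand (RefSeq, GRCh38.p14).
CCNB2 promoter: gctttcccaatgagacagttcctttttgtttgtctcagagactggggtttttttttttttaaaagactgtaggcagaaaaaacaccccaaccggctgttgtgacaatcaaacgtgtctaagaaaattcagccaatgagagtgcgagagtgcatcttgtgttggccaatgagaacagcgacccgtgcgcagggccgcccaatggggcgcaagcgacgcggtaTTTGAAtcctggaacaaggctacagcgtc
CDC20 promoter: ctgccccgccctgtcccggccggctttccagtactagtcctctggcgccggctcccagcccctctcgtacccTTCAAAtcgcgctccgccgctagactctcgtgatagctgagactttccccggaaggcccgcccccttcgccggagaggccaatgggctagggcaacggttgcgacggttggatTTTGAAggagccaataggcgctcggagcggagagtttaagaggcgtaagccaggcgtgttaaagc
CDC20 had 8.23, 8.23 and 8.68 with Ota, against 10.29, 10.45 and 10.19 in control cells of 24 h (-1.93 ± 0.23), and a mean of 8.35 in control cells of 72 h. Members without the letters fell as well, AURKB, KIF20A and CDC25B among them.

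DNA replication genes fell more often than they rose. Of 42 measured, 6 rose and 21 fell, with a relative median of -0.35; 9 rose and 17 fell with centring, and 0 and 31 with spike-in scaling. RFC4, a subunit of the clamp loader, had 6.08, 6.03 and 5.14 with Ota, against 11.08, 11.17 and 11.43 in controls (-5.48 ± 0.23). GINS4, a part of the replicative helicase, had 2.81, 2.65 and 2.65, against 5.24, 7.25 and 6.94 in controls (-3.77 ± 0.40). Without replicate 1 of control cells the difference of GINS4 was -4.39. The primase-polymerase genes POLA2 (-3.44 ± 0.22) and PRIM1 (-2.77 ± 0.24) and the helicase gene GINS2 (-2.84 ± 0.23) fell too. ORC6, of the origin recognition complex, rose (1.14 ± 0.29), as did ORC2 (0.70) and ORC5 (0.69). The number risen dropped to 3 without replicate 1 or replicate 2 of either group, while CDC6, MCM3 and FEN1 differed by -0.17 to 0.16 and did not pass. Control cells of 72 h had 31 of 42 lower than those of 24 h and 0 higher, and Ota cells of 72 h had 20 higher and 7 lower than control cells of 72 h. TK1, which salvages thymidine for DNA synthesis, had 5.64, 6.73 and 6.37 with Ota, against 10.89, 10.91 and 10.82 in control cells of 24 h (-4.63 ± 0.28).

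Among 23 regulators of G1, 3 rose and 9 fell (relative median 0.04); centring gave 8 and 6, and spike-in scaling 1 and 16. CDKN1A had 10.79, 10.56 and 11.27 in Ota cells of 72 h, against 8.50, 8.08 and 8.28 in control cells of 24 h (2.59 ± 0.19, limma adjusted p = 6.39e-07). Its means were 8.88 in Ota cells of 24 h and 8.71 in control cells of 72 h. The cyclin CCND2 (-1.70 ± 0.37), the repressor E2F7 (-1.28 ± 0.45) and the kinase CDK2 (-1.23) fell. The call for E2F7 was lost without replicate 1 or 3 of either group.

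Other p53 targets went both ways, with 7 risen and 5 fallen of 21 (relative median 0.14; 4 and 12 with spike-in scaling). GDF15, a secreted stress factor, had 12.99, 12.48 and 13.82 with Ota, against 9.74, 9.62 and 9.46 in controls (3.49 ± 0.34). GADD45A, an inhibitor of cell cycle kinases (2.38 ± 0.41), and PMAIP1, a protein that promotes cell death (1.62), rose, and the oxidoreductase TP53I3 (-4.63 ± 0.26), the repair factor DDB2 (-1.96), the cyclin CCNG1 (-1.95 ± 0.14) and BAX (-1.49) fell. MDM2, which degrades p53, was at -0.42 and did not pass. Of 25 genes that repair breaks and crosslinks 4 rose and 10 fell (relative median -0.19; 7 and 8 with centring, 0 and 17 with spike-in scaling), and the risen number was 1 without replicate 1 or 2 of Ota cells and 2 without replicate 2 of control cells. RAD54L (-2.50), the Fanconi gene FANCG (-2.36), EXO1 (-2.24) and the checkpoint kinase CHEK1 (-2.01) fell, and TOPBP1, which activates checkpoint signalling, rose (1.01).

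Chaperone and quality control genes of the endoplasmic reticulum were higher in Ota cells of 72 h than in early controls. Of 26 measured, 14 rose and 2 fell, with a relative median of 1.11, but with spike-in scaling 3 rose and 8 fell. ERO1B, an oxidase that helps form disulfide bonds, had 7.46, 7.13 and 7.38 with Ota, against 4.72, 3.79 and 4.52 in controls (2.98 ± 0.27). The co-chaperones DNAJB11 (2.19 ± 0.20), DNAJC3 (2.08 ± 0.28) and DNAJB9 (1.60) rose. HSPA5, the main chaperone of this compartment, had 13.90, 13.60 and 13.51, against 12.58, 12.08 and 12.28 in controls (1.36 ± 0.16, limma adjusted p = 2.28e-05). HYOU1 (0.11), HSP90B1 (0.29), PDIA4 (0.28), CALR (0.10) and SDF2L1 (0.25), chaperones and folding enzymes as well, did not pass. Against control cells of 72 h the picture was the other way round, with 1 higher and 19 lower, since late controls stood above early ones for 22 of 26 and below for 0. HSPA5 averaged 14.86 in control cells of 72 h and 11.28 in Ota cells of 24 h.

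The ER stress response element, searched on both strands as CCAAT and CCACG with 9 bases between them, was found in 7 of 23 promoters of these genes matched and in 0.0806% of all promoters. It is shown in capitals for the gene with the largest rise and for the main chaperone, ERO1B at chr1:236281959-236282208 on the minus strand, where it reads as the reverse complement, and HSPA5 at chr9:125241344-125241593 on the minus strand (RefSeq, GRCh38.p14).
ERO1B promoter: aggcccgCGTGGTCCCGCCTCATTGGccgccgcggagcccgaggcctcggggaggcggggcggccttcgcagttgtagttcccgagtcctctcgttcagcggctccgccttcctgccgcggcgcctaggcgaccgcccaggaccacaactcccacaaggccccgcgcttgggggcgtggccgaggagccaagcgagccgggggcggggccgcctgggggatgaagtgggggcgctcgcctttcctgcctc
HSPA5 promoter: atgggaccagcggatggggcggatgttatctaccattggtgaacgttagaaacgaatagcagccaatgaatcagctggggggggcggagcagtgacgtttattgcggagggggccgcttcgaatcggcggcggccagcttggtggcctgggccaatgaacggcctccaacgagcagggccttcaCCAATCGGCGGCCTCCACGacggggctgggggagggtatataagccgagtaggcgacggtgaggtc
Of the 7 with the letters, CRELD2 (1.35) and CANX (1.05) rose as well, whereas HSP90B1, CALR and XBP1 did not pass.

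ATF4 targets of the integrated stress response changed both ways. Of 31 measured, 12 rose and 8 fell (relative median 0.18), and with spike-in scaling 3 rose and 17 fell. STC2, given above, led the rises, and ATF3, a transcription factor of acute stress, had 8.37, 8.38 and 8.02 with Ota, against 3.86, 3.56 and 4.60 in controls (4.25 ± 0.25). The amino acid transporter SLC7A5 (2.49 ± 0.30) and CTH, which makes cysteine (1.30 ± 0.48), rose. CBS, which makes its precursor cystathionine, had 3.23, 2.90 and 3.42, against 8.04, 7.62 and 7.93 in controls (-4.68 ± 0.19). DDIT4, an inhibitor of mTOR (-3.50 ± 0.16), and the lipoprotein receptor VLDLR (-3.02 ± 0.26) fell, as did ATF4 itself (-0.63 ± 0.14). DDIT3, a transcription factor of prolonged stress, rose by 1.05 ± 0.31 against early controls and averaged 7.87 in Ota cells of 72 h, 11.84 in control cells of 72 h and 6.82 in control cells of 24 h. Control cells of 72 h had 28 of the 31 above those of 24 h and 0 below, and Ota cells of 72 h had 1 above and 27 below control cells of 72 h. Of 17 tRNA synthetase genes 5 rose and 6 fell (6 and 3 with centring, 0 and 11 with spike-in scaling), led by CARS1 for cysteine (1.48 ± 0.17) and AARS1 for alanine (-1.68 ± 0.22).

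**Figure D3:**
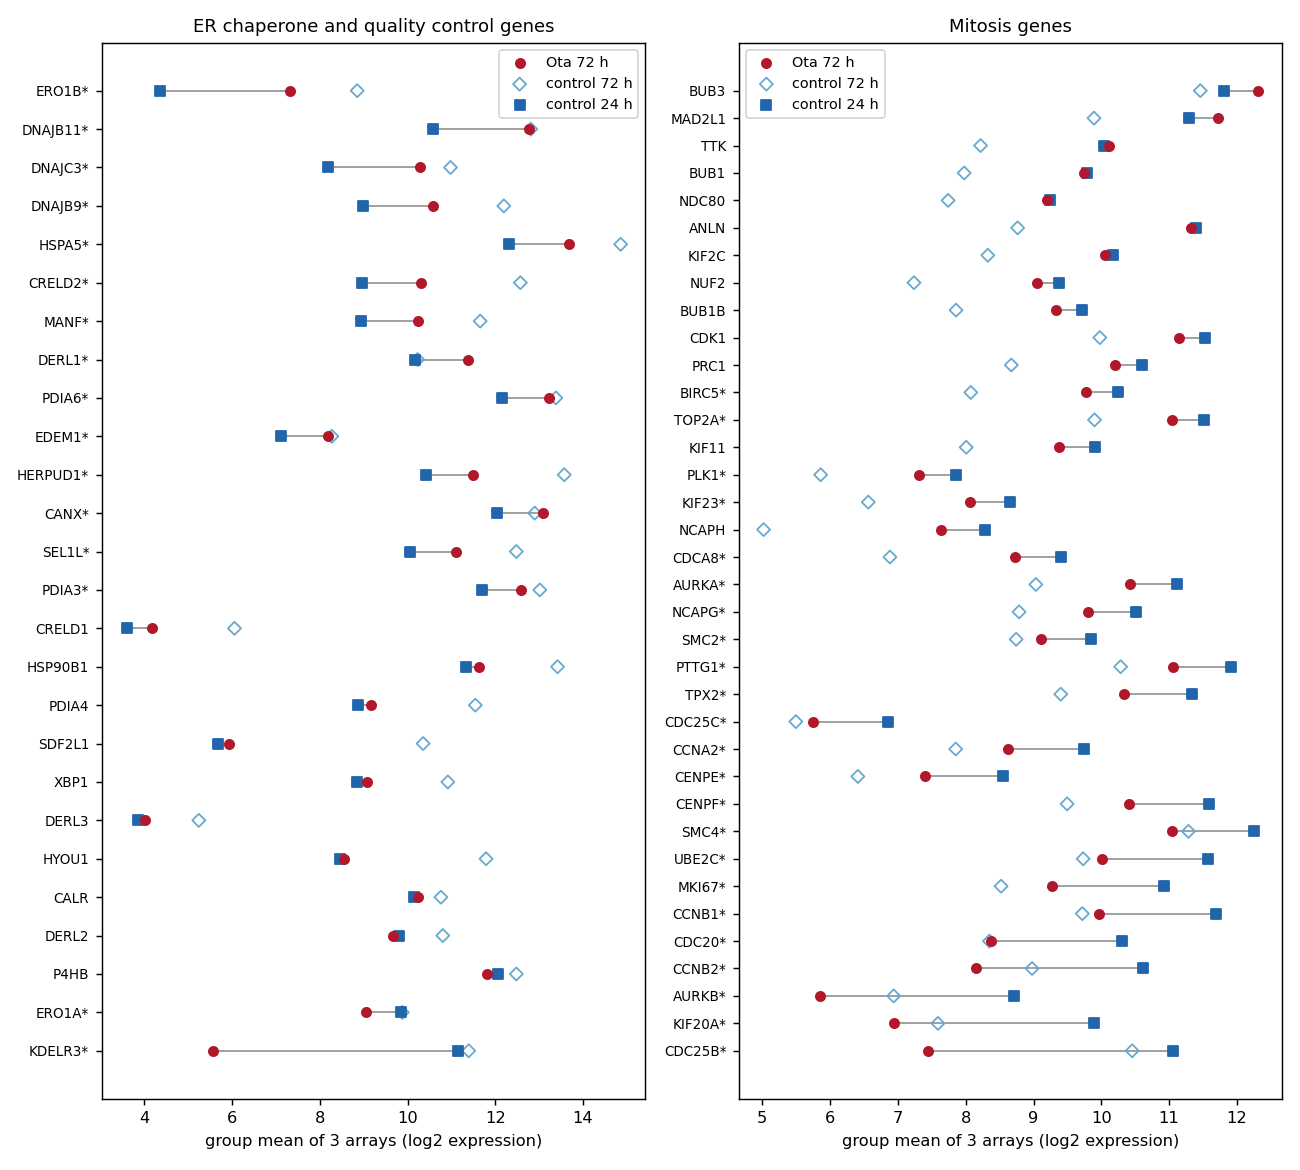
Mean log2 expression (horizontal axis) of each measured endoplasmic reticulum gene and mitosis gene in Ota cells of 72 h, control cells of 72 h and control cells of 24 h, with an asterisk where Ota 72 h and control 24 h differed past the threshold. For most endoplasmic reticulum genes Ota cells lie between early and late controls; with spike-in scaling 3 rather than 14 of them rose against early controls.

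Heat shock genes rose in Ota cells of 72 h against both control times. Of 16 measured, 11 rose and 2 fell (relative median 0.81) against early controls, although 3 rose and 4 fell with spike-in scaling. DNAJA1, a co-chaperone of HSP70, had 13.82, 13.65 and 13.62 with Ota, against 11.81, 11.60 and 11.88 in controls (1.94 ± 0.30). HSPH1, which recharges HSP70 with nucleotide (1.85 ± 0.29), BAG3, a partner of HSP70 in autophagy (1.83 ± 0.17), and HSP90AB1 (1.39 ± 0.15) rose, and the small heat shock gene HSPB1 fell (-0.97 ± 0.20). HSPA4L rose by 1.59 ± 0.32 through a probe set that may detect several transcripts, and stood at -0.09 without such probe sets. HSP90AA1 (0.07) and DNAJB1 (-0.63) did not pass. Against control cells of 72 h, 10 rose and 1 fell, and late controls differed from early ones in 2 rises and 2 falls. Of the same 16, 13 were higher and 1 lower in Ota cells of 72 h than of 24 h, where DNAJA1 averaged 11.52.

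Metallothionein genes fell together. All 7 measured metallothioneins fell, by 2.75 to 3.45 on the log2 scale, while MTF1, the zinc sensor that drives them, rose by 0.94 ± 0.19 and the zinc exporter SLC30A1 by 0.61 ± 0.20. With spike-in scaling the same 7 fell and 0 of the list rose. MT1F had 9.16, 9.41 and 9.35 with Ota, against 12.72, 12.85 and 12.69 in controls (-3.45 ± 0.18, limma adjusted p = 5.65e-08). MT1X had 10.12, 10.62 and 10.64, against 13.63, 13.75 and 13.47 (-3.16 ± 0.21), and MT2A 11.38, 11.64 and 11.88, against 14.39, 14.40 and 14.36 (-2.75 ± 0.17), in Ota and control cells. No array of one group reached the other group for any of the 3. The probe sets of 7 of the 9 list members may be shared by near-identical paralogs; without such probe sets 3 members were left, 2 risen and 1 fallen. One of the 2 rises was lost without replicate 1 or 3 of Ota cells or replicate 2 of control cells. Control cells of 72 h had 7 of the 9 list members below those of 24 h, by less, for MT1F by 0.73 (limma adjusted p = 0.011). Ota cells of 24 h had 3 above and 2 below control cells of 24 h, where 20.8% of all genes rose and 40.5% fell, and MT1F averaged 12.29 there.

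Promoters of MT1X and MT1H are printed for their repeats of the metal response core, searched as TGCNCNC on both strands and set in capitals. They lie at chr16:56682220-56682469 and chr16:56669564-56669813, both on the plus strand (RefSeq, GRCh38.p14).
MT1X promoter: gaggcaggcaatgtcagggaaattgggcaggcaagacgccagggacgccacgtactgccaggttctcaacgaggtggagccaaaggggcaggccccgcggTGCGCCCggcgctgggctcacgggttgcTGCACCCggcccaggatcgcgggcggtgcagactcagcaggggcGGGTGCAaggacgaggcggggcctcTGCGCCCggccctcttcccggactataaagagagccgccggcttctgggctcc
MT1H promoter: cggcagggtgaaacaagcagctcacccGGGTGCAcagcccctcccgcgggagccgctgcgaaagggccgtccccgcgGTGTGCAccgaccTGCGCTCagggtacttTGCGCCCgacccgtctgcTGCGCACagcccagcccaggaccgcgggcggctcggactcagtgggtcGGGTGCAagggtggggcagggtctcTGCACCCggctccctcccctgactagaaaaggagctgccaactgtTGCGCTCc
The core is common, since 48.4% of all promoters hold it at least once. MT1X holds 4 matches, as do or exceed 1.70% of all promoters, and MT1H holds 8, as do or exceed 0.0623%. MT1H fell by 2.88 (SE 0.17) and lay at 8.85, 9.29 and 9.43 with Ota, against 11.97, 12.26 and 11.98 in controls.

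**Figure D4:**
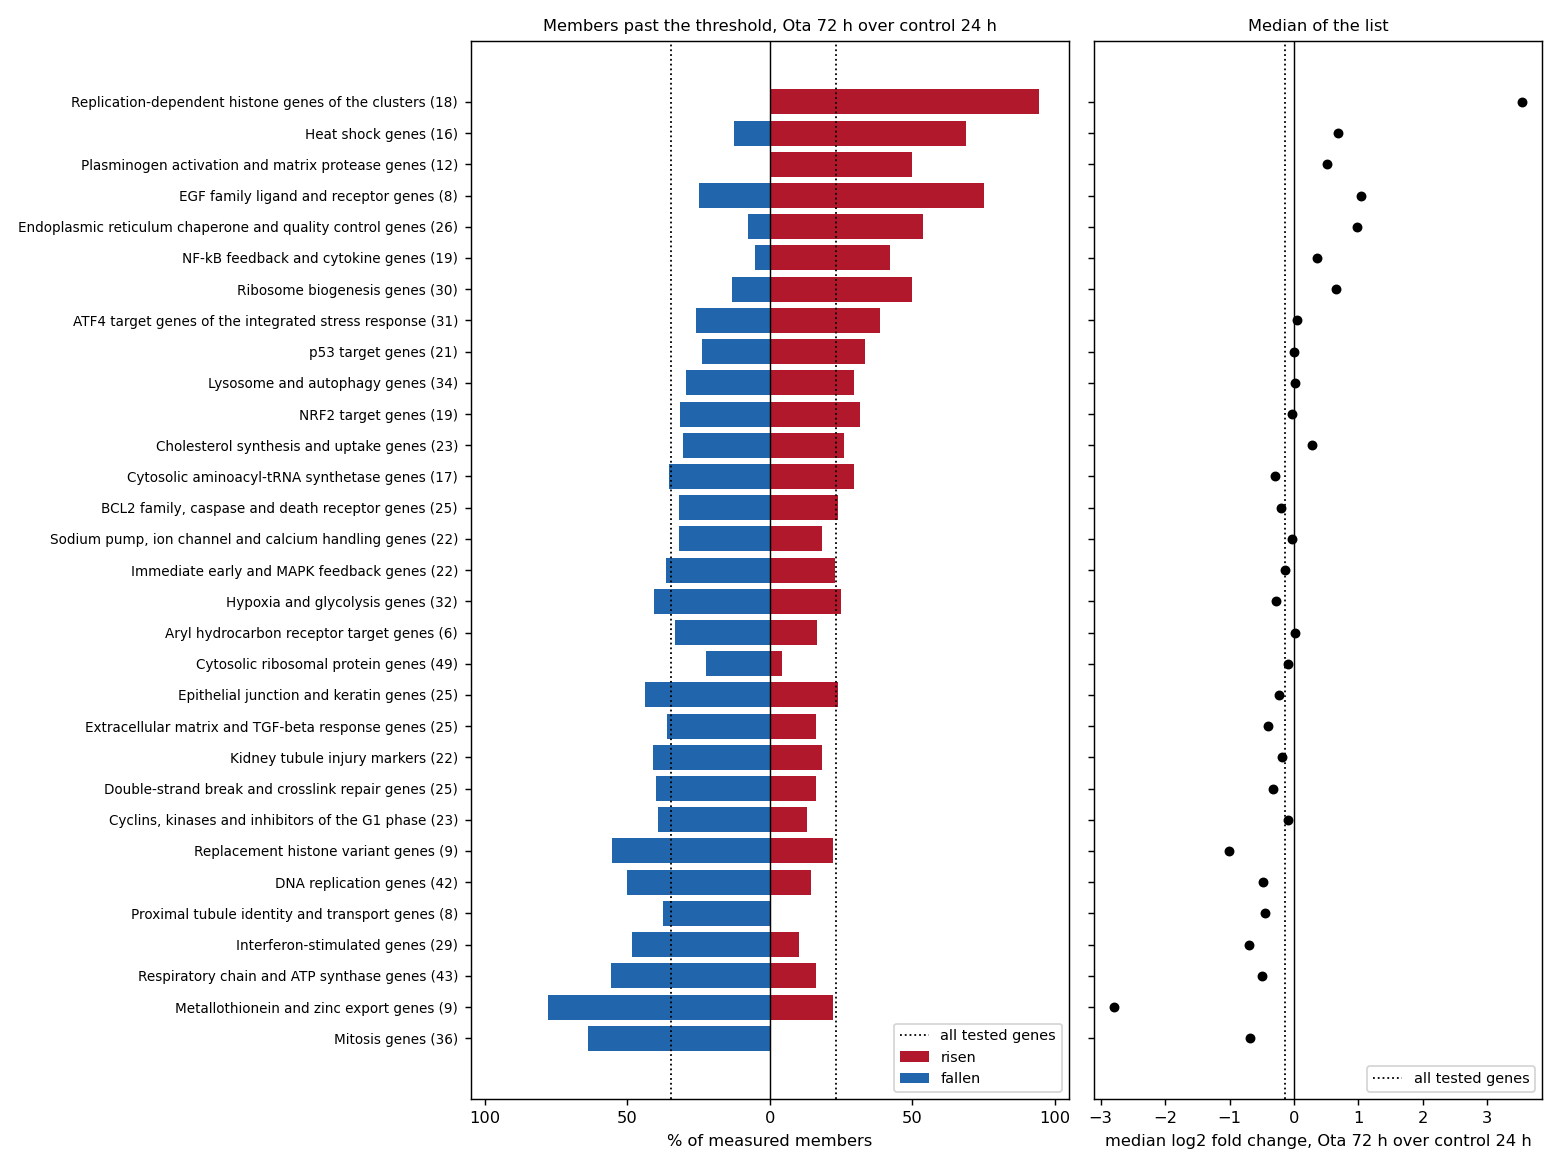
Share of measured members that rose or fell in Ota cells of 72 h against control cells of 24 h for each gene list (left, percent; dotted lines at 23.2% and 34.8% for all tested genes) and each list's median log2 difference (right). Of the 18 histone members 10 passed the filter only through Ota arrays, and with spike-in scaling more members fell than rose for every list shown except the histones.

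Genes of plasminogen activation rose, as did several ligands of the EGF receptor. PLAUR, the urokinase receptor, had 9.92, 10.44 and 10.04 with Ota, against 5.94, 5.62 and 6.31 in controls (4.18 ± 0.23, limma adjusted p = 8.61e-08). PLAU, urokinase, had 12.20, 12.24 and 12.75, against 10.31, 9.69 and 10.27 (2.30 ± 0.26), and the collagenase MMP1 (2.56 ± 0.55, and 3.18 without replicate 2 of control cells) and the inhibitor SERPINE2 (1.23 ± 0.23) rose too. Of 12 measured, 6 rose and 0 fell (relative median 0.65), 1 fell without replicate 2 of Ota cells, and with spike-in scaling 3 rose and 4 fell. Late controls lay below early ones for 7 of the 12, so that 8 rose and 0 fell against control cells of 72 h, where PLAUR averaged 4.22. Of 8 EGF family genes 6 rose and 2 fell (relative median 1.17), and with spike-in scaling 1 rose and 2 fell. The ligands HBEGF (2.27 ± 0.29) and EREG (1.45 ± 0.23) and ERRFI1, a feedback inhibitor (1.26), rose, while the receptors EGFR (-1.11 ± 0.20) and ERBB2 (-1.42 ± 0.30) fell. EGFR had 10.54, 10.14 and 10.99 with Ota, against 11.73, 11.60 and 11.67 in controls.

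Of 22 immediate early and MAPK feedback genes 5 rose and 8 fell, but 9 and 6 with centring, 8 and 8 with quantile normalization, and 3 and 11 with spike-in scaling. EPHA2, a receptor kinase induced by MAPK signals (2.76 ± 0.38), JUN (1.83 ± 0.22) and the feedback inhibitor SPRY4 (1.80 ± 0.21) rose, and EGR1, a zinc finger transcription factor, had 8.11, 7.72 and 7.41 with Ota, against 10.37, 10.72 and 11.25 in controls (-3.04 ± 0.23). Of 19 NF-kB genes 8 rose and 1 fell (relative median 0.49; 4 and 8 with spike-in scaling), and 2 fell without replicate 3 of Ota cells. That array stood apart, since the mean log2 difference of the list from the control mean of 24 h was 0.39, 0.65 and 1.56 on the Ota arrays, against -0.05, -0.23 and 0.28 on the control arrays. The kinase IRAK2 (3.69 ± 0.42), the chemokine CCL20 (3.20 ± 0.66) and TNFAIP3, an inhibitor of the pathway (2.16 ± 0.39), rose, and the chemokine CCL2 fell (-2.71 ± 0.47). CCL20 stood at 2.53 without replicate 3 and at 3.98 without replicate 1 of Ota cells. IL6, a cytokine, had 6.12, 6.07 and 10.23 with Ota, against 3.64, 2.90 and 3.82 in controls (4.02 ± 0.85). Without replicate 3 of the Ota cells the difference of IL6 was 2.64, and without replicate 1 or 2 it was 4.70 or 4.72. NFKBIA (0.04) and CXCL8 (0.01), both classic targets, did not pass.

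More interferon-stimulated genes fell than rose. Of 29 measured 3 rose and 14 fell, with a relative median of -0.57; 5 rose and 10 fell with centring, and 0 and 24 with spike-in scaling. IFI35 had 2.39, 2.40 and 2.16 with Ota, against 6.81, 6.66 and 6.61 in controls (-4.38 ± 0.24). PSMB9, an immunoproteasome subunit (-4.07 ± 0.43), IFIT1, which binds viral RNA (-2.78 ± 0.28), and ISG15, a ubiquitin-like modifier (-2.04 ± 0.21), fell, while the RNA sensor OAS1 rose by 0.85 ± 0.26 and lost this call without replicate 3 of Ota cells (0.71) and its sign with spike-in scaling (-0.08). The other probe set of OAS1, near background in control cells of 24 h (mean 3.06), stood at 2.59. Against control cells of 72 h, 5 of the list rose and 15 fell, and control cells of 72 h differed from those of 24 h in 2 rises and 3 falls. IFIT1 averaged 8.84 in Ota cells of 24 h, and 14 of the 29 were lower at 72 h than at 24 h of Ota.

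Several genes of the differentiated tubule epithelium fell, where 23.2% of all tested genes rose and 34.8% fell. CLDN2, which encodes the paracellular sodium channel claudin 2, had 5.85, 5.94 and 7.19 with Ota, against 10.15, 10.21 and 10.10 in controls (-3.83 ± 0.30). CDH16, kidney-specific cadherin, had 5.06, 4.93 and 4.86, against 8.53, 8.39 and 7.96 (-3.35 ± 0.22), and CDH1, E-cadherin, fell by 2.12 (SE 0.28). Of 25 junction and keratin genes 6 rose and 11 fell (relative median -0.11; 0 and 18 with spike-in scaling), with rises of desmosome genes such as DSP (1.22 ± 0.29) and DSG2 (0.87 ± 0.14). Against control cells of 72 h, 5 rose and 13 fell. Of 34 proximal tubule genes only 8 passed the filter, of which 0 rose and 3 fell (0 and 6 with spike-in scaling). That share of falls is close to the share over all tested genes. SLC4A4, the basolateral sodium bicarbonate cotransporter, had 8.71, 8.48 and 9.29 with Ota, against 11.91, 11.79 and 11.91 in controls (-3.04 ± 0.21). SLC3A1, a subunit of the cystine transporter (-2.95 ± 0.21), and PAX8 (-2.08 ± 0.40, and -2.67 without replicate 3 of Ota cells) fell, whereas DPP4 (-0.58), the exporter ABCB1 (-0.19) and ABCC4 (0.31) did not pass. The summed epithelial markers given above were also lower with Ota, and their part in these falls was not tested.

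Kidney injury markers gave 4 rises and 9 falls of 22 (relative median -0.06; 2 and 15 with spike-in scaling). Beside GDF15, CD44, a hyaluronan receptor (1.80 ± 0.24), rose, and VCAM1, an adhesion molecule (-2.97 ± 0.29), and HAVCR1, the injury marker KIM-1 (-1.32), fell. Among matrix and TGF-beta genes, 25 were measured, 4 of which rose and 9 fell (relative median -0.27; 2 and 17 with spike-in scaling). The collagen COL8A1 had 9.16, 9.21 and 9.28, against 11.56, 11.46 and 11.80 in controls (-2.38 ± 0.15). LOX and LOXL2, which crosslink collagen (-1.62 and -1.46), vimentin VIM (-1.44 ± 0.20) and fibronectin FN1 (-1.36 ± 0.20) fell, and TAGLN, an actin-binding protein of contractile cells, rose (2.05 ± 0.44).

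Respiratory chain and ATP synthase genes were lower in Ota cells of 72 h. Of 43 measured 7 rose and 24 fell (relative median -0.36); 11 rose and 18 fell with centring, and 0 and 35 with spike-in scaling. NDUFB10, a subunit of complex I, had 5.23, 6.40 and 5.17 with Ota, against 10.51, 10.72 and 10.62 in controls (-5.02 ± 0.32), and averaged 10.76 in Ota cells of 24 h. ATP5F1D of ATP synthase (-2.30 ± 0.26), UQCRC1 of complex III (-2.05 ± 0.27) and NDUFV1 of complex I (-1.51) fell, and NDUFV2 of complex I rose (1.06 ± 0.13). Without probe sets that may be shared, 9 of 31 rose and 9 fell, with a median of 0.05. Ota cells of 72 h had 25 lower and 4 higher than Ota cells of 24 h.

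Genes of ribosome biogenesis and ribosomal proteins were counted separately. Of 30 biogenesis genes 15 rose and 4 fell (relative median 0.78), though 1 rose and 10 fell with spike-in scaling. TCOF1, treacle, a factor of ribosomal DNA transcription, had 8.41, 8.28 and 8.33 with Ota, against 6.08, 6.41 and 6.75 in controls (1.93 ± 0.23). UTP4 (1.54 ± 0.16) and BRIX1 (1.52 ± 0.25), which process and assemble pre-ribosomes, rose, and NHP2, of the snoRNA-guided pseudouridine complex, fell (-1.80 ± 0.18). Against control cells of 72 h 14 rose and 2 fell. Against Ota cells of 24 h 22 rose and 1 fell, where 37.0% of all tested genes rose and 23.3% fell. Of 49 ribosomal proteins 2 rose and 11 fell, and 44 had a 95% interval within -1 to 1. The number fallen was 18 without replicate 2 of Ota cells, and the number risen was 0 without replicate 1 and 1 without replicate 2 of control cells, and 1 without replicate 2 of Ota cells. With centring 14 rose and 3 fell, and with spike-in scaling 0 and 47. Without probe sets that may be shared, 7 of 22 rose and 5 fell.

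**Figure D5:**
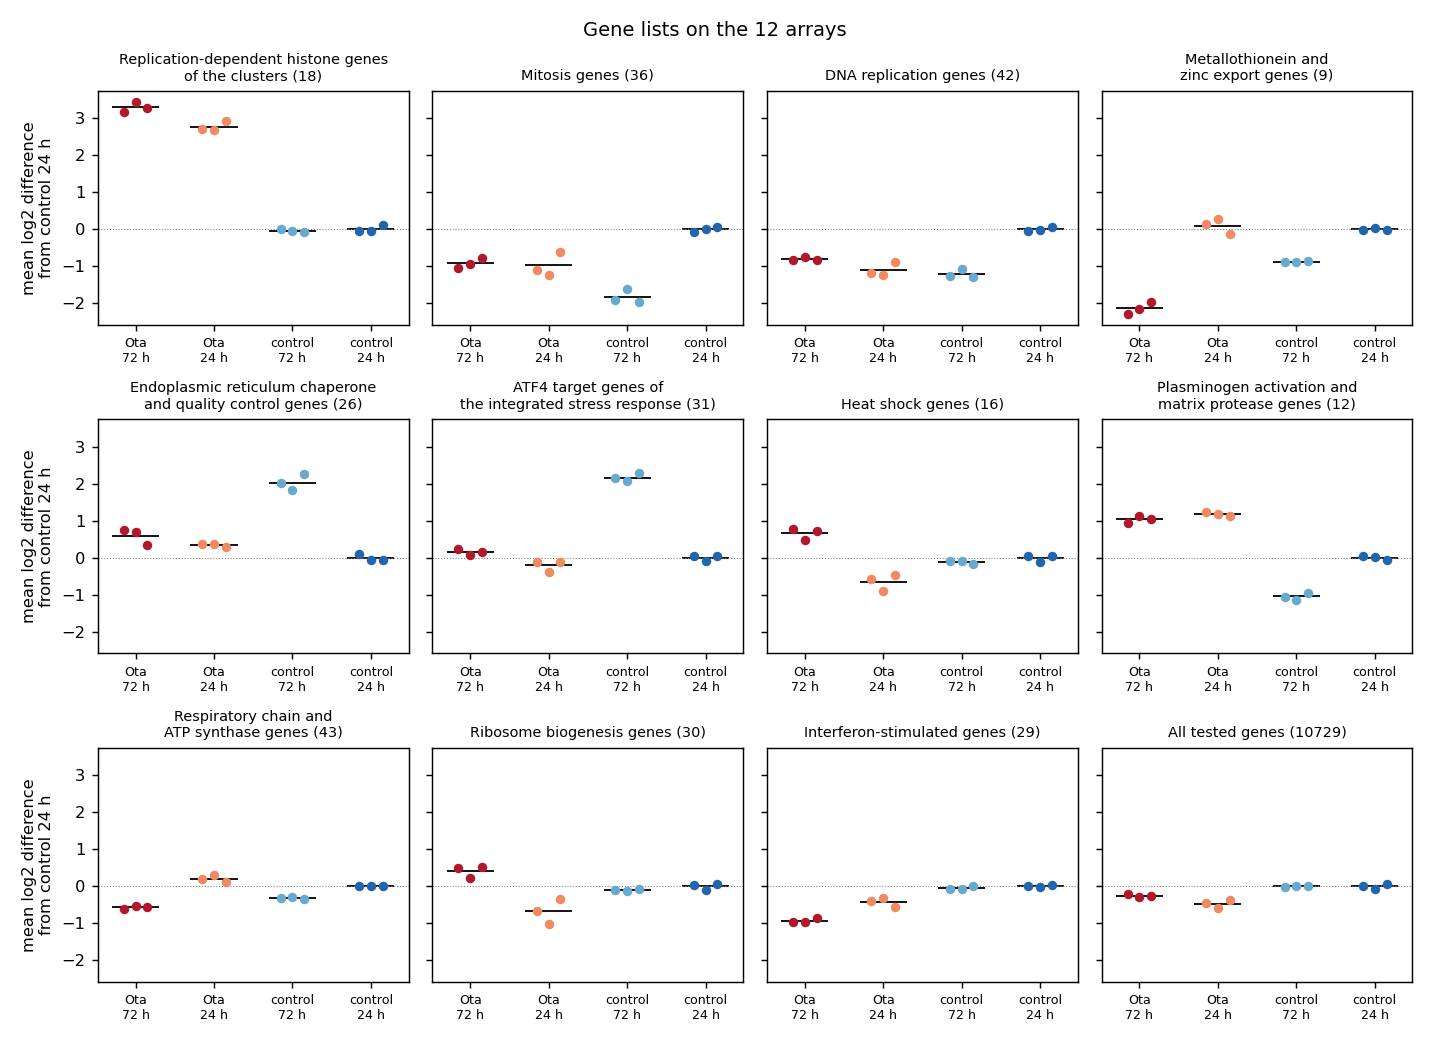
Mean log2 difference from the control 24 h mean on each array, for 11 gene lists and all tested genes, in the order Ota 72 h, Ota 24 h, control 72 h and control 24 h (points for arrays, horizontal lines for the mean, n = 3). Metallothioneins are lowest on the Ota 72 h arrays, and ER chaperones and ATF4 targets are highest on the control 72 h arrays; all values are as deposited, before any spike-in scaling.

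The remaining lists changed in both directions. Among 23 cholesterol genes 6 rose and 7 fell (11 and 7 with centring, 0 and 12 with spike-in scaling), and 10 rose without replicate 2 of Ota cells; MSMO1, a sterol oxidase, rose (1.26 ± 0.21) and TM7SF2, a sterol reductase, fell (-4.25 ± 0.55, and -5.04 without replicate 2 of Ota cells). Among 32 hypoxia and glycolysis genes 8 rose and 13 fell (1 and 24 with spike-in scaling), with the vasodilator peptide ADM at 2.90 ± 0.20 and TXNIP, an inhibitor of glucose uptake, at -2.13 ± 0.41. TXNIP averaged 7.68 in Ota cells of 72 h, 10.73 in Ota cells of 24 h, 3.79 in control cells of 72 h and 9.81 in control cells of 24 h. Among 34 lysosome and autophagy genes 10 rose and 10 fell (12 and 7 with centring, 1 and 21 with spike-in scaling), and ATG12, which tags autophagy membranes, rose (2.09 ± 0.19). Of 25 apoptosis genes 6 rose and 8 fell (3 and 17 with spike-in scaling). The death receptor TNFRSF10A (2.00 ± 0.23), the decoy receptor TNFRSF10D (2.00 ± 0.16), which binds the same ligand without signalling death, PMAIP1 and the caspase gene CASP8 (1.46 ± 0.28) rose, and the survival factor BCL2L2 fell (-3.19 ± 0.17).

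Of 22 ion transport genes 4 rose and 7 fell (6 and 4 with centring, 5 and 5 with quantile normalization, 1 and 15 with spike-in scaling), with falls of the sodium channel subunit SCNN1A (-1.90 ± 0.19) and the sodium pump modulator FXYD2 (-1.23 ± 0.29), and a rise of the potassium channel KCNK1 (1.85 ± 0.38). The other probe set of SCNN1A stood at 0.18. Of 19 NRF2 targets 6 rose and 6 fell (7 and 6 with centring, 1 and 11 with spike-in scaling). GCLM, which makes glutathione, rose (1.89 ± 0.30), and NQO1, a quinone reductase, had 6.67, 7.93 and 6.37 with Ota, against 9.54, 9.67 and 9.63 in controls (-2.62 ± 0.34). Of 6 aryl hydrocarbon receptor targets 1 rose and 2 fell (0 and 5 with spike-in scaling). None of the calls but that of NQO1 held without each array in turn. CYP1B1, an oxidase of estrogens and hydrocarbons, stood at -1.07 and AHR at 0.81. The other probe sets of CYP1B1 stood at -1.55 and -1.21.

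Some changes against early controls were also seen in control cells that stayed longer in culture without Ota. Past the threshold against control cells of 24 h and within a doubling of control cells of 72 h were SEC11C, of the signal peptidase (2.17 ± 0.16), DNAJB11, the transporter SLC33A1 (1.52 ± 0.19) and AFF3, of the elongation machinery (1.56 ± 0.17). CRYM, a thyroid hormone-binding protein, averaged 7.94 with Ota, against 7.76 in control cells of 72 h and 10.91 in control cells of 24 h (-2.97 ± 0.19). The separase ESPL1 (-2.49 ± 0.15), EXO1 (-2.24 ± 0.30) and the centromere gene CENPI (-2.22 ± 0.24) were alike in this. For DNAJB11, the 72 h groups differed by -0.05, and for ESPL1 by -0.08. A 95% interval within -1 to 1 between the 72 h groups was a condition by which all these genes were chosen.

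Other genes kept the early level in Ota cells of 72 h while late controls moved. SDF2L1, a chaperone partner, had 6.17, 5.67 and 5.95 with Ota, against 5.78, 5.59 and 5.69 in control cells of 24 h (0.25, 95% interval -0.15 to 0.64), and averaged 10.35 in control cells of 72 h. It passed the test with quantile normalization (0.46) and with centring (0.53). BEX2 (-0.38), CADPS2, of vesicle release (0.17), and CUTALP (-0.57) likewise stayed within a doubling of early controls and lay 3.47 to 4.06 below late controls. On the other side were MCM10, a replication initiator (0.53), POLQ, a repair polymerase (-0.06), ANLN, anillin of the dividing cell's furrow (-0.08), and PLK4, the kinase of centriole copying (0.05). These 4 exceeded late controls by 2.53 to 3.73. Closeness to early controls and a call against late ones were the conditions by which all these genes were chosen. Of the 8 genes, MCM10 and CUTALP passed the test against early controls as well, and both lost it without some of the arrays. POLQ averaged 3.02 in Ota cells of 24 h and 6.74 in Ota cells of 72 h.

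A last group changed between 24 h and 72 h of Ota, having been within a doubling of control cells at 24 h. LIMCH1, an activator of myosin (4.50 ± 0.15), XDH, which makes uric acid (4.24 ± 0.19), and the non-coding RNA LITATS1 (3.96 ± 0.16) rose together with H2BC21, each from near background. XDH had 6.87, 6.85 and 6.07 in Ota cells of 72 h, against 2.35, 2.36 and 2.36 in control cells of 24 h, with a mean of 2.51 in Ota cells of 24 h. NDUFB10, CHCHD5 (-4.51 ± 0.22), MPND (-3.96 ± 0.21) and GSTZ1, an enzyme of tyrosine breakdown (-4.10 ± 0.27), fell. CHCHD5 rests on 1 probe set, since its other one stood at 0.20. These 8 genes were chosen because the comparison with Ota cells of 24 h passed the threshold, so that call is not a separate result. Their means in control cells of 72 h lay within 0.58 of those in control cells of 24 h.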

How the data were processed

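Expression was measured on 12 Affymetrix arrays with 54675 probe sets. The authors deposited log2 expression values per probe set, made with GCRMA per the submitters' processing notes; its version and which arrays were normalized together are not given in the sources used here. The deposited values were used without further normalization. Of all probe sets, 62 are Affymetrix controls, none of which stood for a tested gene. In the platform's annotation 41097 probe sets had 1 gene symbol, 1801 several and 11777 none, and only the first kind was used, 41043 of which matched a current gene record. Probe sets had to exceed 4 on 3 or more arrays, and of several such probe sets for a gene the one with the highest mean over all arrays stood for it. This left 10729 genes, 5153 of them with several probe sets. All 4 groups were fitted together with limma 3.58.1 in R 4.3.3 (8 residual degrees of freedom), and p-values were adjusted by the Benjamini-Hochberg method over all genes. The number of arrays limits the precision. Data of 10729 genes were simulated with independent noise and no array-wide shift. In them, 50 genes each were changed by 0.5, 1, 2 and 4 on the log2 scale. Of these, 2%, 64%, 90% and 100% were recovered, and 3.76% of calls were unchanged genes. Far fewer genes changed there than were called in the real data, and the adjusted threshold depends on that share. These rates therefore do not carry over to the comparison itself. Columns from other samples numbered 0.

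The comparison, gene lists and alternatives were chosen with earlier results of these data known. Genes were named by a rule: the 12 largest changes in each direction whose arrays did not overlap and with no probe set called the opposite way, the 8 largest of each with both means at least 6, up to 4 leading members of each list with the largest in the other direction, and up to 4 genes in each direction that moved in late controls too, kept the early control level, or changed only between the Ota times by the 95% intervals. Further list members, among them those given as not passing, were chosen after their values were seen. Promoters were the 250 bases before each gene's start in RefSeq, GRCh38.p14. Alternatives covered normalization, filter, probe sets, variance model, threshold, arrays fitted, the replicate number and each array left out.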

Additional observations from a re-analysis of the deposited data

How the results depend on the processing

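As deposited, 6226 genes changed, 2487 up and 3739 down, with a median log2 difference of -0.13 and 4280 genes within -1 to 1. Scaling to the poly-A spike-ins gave 462 risen and 7055 fallen genes, a median of -1.06 and 1481 genes within -1 to 1. The median was -0.0722 with quantile normalization, 0.15 with centring (3677 risen, 2850 fallen), 0.0201 with no filter, which placed 12947 genes within -1 to 1, and -0.0489 without probe sets that may detect several transcripts. Counting all probe sets gave 11120 changed, 5048 risen and 6072 fallen, 7365 within -1 to 1 and a median of -0.0549. Asking for an absolute difference of at least 1 left 3741 genes, 1222 of them risen. Without each array in turn 5545 to 5913 genes changed, 2098 to 2374 up and 3372 to 3543 down. Under the other settings these counts stayed within 1.5 times.

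The numbers of the labels did not pair the arrays, since same-numbered arrays deviated together with correlations of -0.01, 0.21 and 0.04. With the replicate number as a block (replicate block) 6328 genes changed, 2537 up and 3791 down.

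Of 3515 values of 179 named genes under the alternatives, 3415 kept direction and side of the threshold, 72 lost the call, 5 gained it and 23 turned sign. Spike-in scaling turned AHR (-0.12), CADPS2 (-0.76), MCM10 (-0.39), OAS1 (-0.0764), PLK4 (-0.88), RPL27A (-0.43) and SDF2L1 (-0.68). Centring turned ANLN (0.21) and POLQ (0.22), quantile normalization POLQ (0.0871), and array weights PLK4 (-0.00879). Without probe sets that may detect several transcripts, ATG7 (0.11), CHCHD5 (0.20) and HSPA4L (-0.0893) turned, through another probe set of each gene. Leaving out 1 array moved 4 genes close to 0 to either side, ANLN from -0.16 to 0.0445, CADPS2 from -0.000101 to 0.29, PLK4 from -0.10 to 0.18 and POLQ from -0.28 to 0.15. Except for the probe sets, the cause of these shifts was not tested.

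With 3 arrays a group, treatment and time differ together here. Values under 4 lie near background, which limits folds from that level.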
